A study of Mus musculus with 19 samples.

Results

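The ErbB receptors, a set of their ligands and the adaptor Grb7 were followed in mammary glands and mammary tumors of mice. The 10 genes were taken by symbol from the table of normalized counts: the 4 receptors *Erbb2*, *Egfr*, *Erbb3* and *Erbb4*, the 5 ligand genes *Areg*, *Ereg*, *Btc*, *Nrg1* and *Hbegf*, and *Grb7*. They are 10 of the 46078 genes in that table. No cutoff on their values was used, but earlier results of these data were known when they were chosen. The study compared neu-driven tumors and glands without malignant lesions from tumor-bearing mice, with and without mutant p53 in stromal fibroblasts, by RNA-seq of 19 samples.

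MGWT was 3 glands of wild-type mice. MGN was 4 glands labelled as having wild-type p53 in fibroblasts, of which replicate 1 had the genotype MMTV-neu;Fsp-Cre and the other 3 had MMTV-neu;p53wm-R172H/+ without Cre. MGNP was 4 glands of MMTV-neu;p53wm-R172H/+;Fsp-Cre mice, and TNP was 4 tumors of that genotype. TN was 4 tumors of MMTV-neu;Fsp-Cre mice, so TN tumors and 3 of the 4 MGN glands differ in genotype as well as in tissue. Every group but MGWT carries MMTV-neu, a transgene in which the mouse mammary tumor virus promoter drives neu, the rat counterpart of *Erbb2*. Fsp-Cre acts in cells that use the Fsp1 promoter, and the p53wm-R172H allele turns from wild-type to R172H p53 where Cre is present. Ages were not given in the sample labels. The library names of TNP replicates 1 and 2 share an animal number, and nothing in the labels says whether the other samples came from separate litters or batches, so p-values measure the spread between these samples.

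ErbB receptors are tyrosine kinases at the cell surface that signal in pairs. Egfr binds amphiregulin (*Areg*), epiregulin (*Ereg*), betacellulin (*Btc*) and heparin-binding EGF (*Hbegf*), not all of them exclusively. Ligands of Erbb3 and Erbb4 include neuregulins such as *Nrg1*. Erbb2 has no known ligand and is the preferred partner of the others, and Erbb3 has very weak kinase activity of its own and docks PI3K once its partner has phosphorylated it. In the mammary gland, amphiregulin from luminal cells acts on stromal Egfr to drive duct growth, and Erbb4 is needed for the milk-producing state. Grb7 binds phosphorylated ErbB receptors.

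*Erbb2* (chromosome 11, 98412470 to 98437716, plus strand, GRCm38) and *Grb7* (98446394 to 98455373, plus strand) are neighbours with a gap of 8.7 kb. *Ereg*, *Areg* and *Btc* lie with the ligand gene *Epgn* in a cluster that spans 375.5 kb of chromosome 5. The other members lie apart, *Egfr* also on chromosome 11 (16752203 to 16918158), *Erbb3* on chromosome 10 (128567523 to 128589652) and *Erbb4* on chromosome 1 (68032186 to 69108059). The last 9 bases of *Erbb2* overlap *Mien1* on the other strand. *Egfr*, *Ereg* and *Nrg1* also overlap genes on the other strand, none of which exceeded 51.1 normalized counts in any library, and whether counting used strand is not given in the sources used here.

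The promoters of 5 members had an entry in the RefSeq table of 300-base windows used here (GRCm38.p6), those of *Erbb2*, *Egfr*, *Erbb4*, *Areg* and *Btc*. The bases upstream of the start are shown for the member that fell most and the member that rose most from wild-type gland to tumor. Capitals mark matches to the cAMP response element TGACGTCA and the TATA box TATAAA. *Areg* is shown for chr5:91139349-91139598 and *Erbb2* for chr11:98412234-98412469, both on the plus strand.
Areg: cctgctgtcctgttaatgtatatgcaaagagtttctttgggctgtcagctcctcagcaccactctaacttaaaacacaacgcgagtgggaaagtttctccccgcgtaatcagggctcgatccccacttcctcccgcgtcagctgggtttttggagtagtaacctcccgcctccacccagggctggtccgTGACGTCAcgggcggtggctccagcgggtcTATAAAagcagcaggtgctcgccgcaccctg
Erbb2: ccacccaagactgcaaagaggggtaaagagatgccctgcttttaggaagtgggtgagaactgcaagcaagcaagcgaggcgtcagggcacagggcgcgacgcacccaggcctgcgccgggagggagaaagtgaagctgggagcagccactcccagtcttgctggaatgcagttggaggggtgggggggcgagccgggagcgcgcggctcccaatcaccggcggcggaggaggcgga
The *Areg* window held TGACGTCA, which begins 61 bases before the start, and TATAAA, which begins 31 bases before it. On either strand, the first occurs in 1.79% and the second in 13.6% of the 32851 windows of the same length. Neither of them occurred in the 300-base windows of *Erbb2*, *Egfr*, *Erbb4* or *Btc*, and the AP-1 site TGANTCA (7.81% of all windows) and the Egr site GCGTGGGCG (0.612%) occurred in none of the 5. The neu transgene does not use the *Erbb2* window shown, since its own promoter is viral.

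The groups differed in cell content, which bears on every member. Reads, recovered by dividing each library's normalized counts by their common step, ranged from 54677315 to 62645459 in MGWT and from 20899152 to 27262440 in the other groups. All 9 luminal markers had at least 10 normalized counts in every library. Their summed level was 83533 to 101122 in MGWT, 13656 to 26908 in MGN, 8702 to 27343 in MGNP, 94386 to 185864 in TN and 98889 to 135188 in TNP. Single markers differed in direction. In the tumors *Krt19* was at 33.7 to 1512 normalized counts, against 17055 to 21111 in MGWT. *Cdh1* was at 4892 to 11767 in TN and 7022 to 8076 in TNP, against 11190 to 14368 in MGWT. *Epcam* was at 26506 to 45956 in the tumors, against 7748 to 10566 in MGWT. The 9 white adipocyte markers summed to 1608 to 2317 in MGWT, with *Adipoq* at 1.71 to 23.4, against 160527 to 456750.1 in MGN and MGNP, so the labelled wild-type glands hold little adipocyte RNA. The 9 immediate-early genes summed to 323113 to 413328 in MGWT and to at most 8563 in any other library. The 24 skeletal muscle genes made up 3.80%, 20.5% and 11.8% of all normalized counts in MGNP replicates 1, 2 and 4, and at most 0.218% in every other library. The part of these differences in the results below was not tested, except where a value is given, and in bulk tissue fewer cells of a type and less RNA per cell cannot be told apart.

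A member was called where limma over all genes gave an adjusted p under 0.05 and at least a 2-fold change. By that rule *Erbb2* was the only member called higher in tumors against both the matching glands and the wild-type glands. It stood at 3826, 3855 and 4210.1 normalized counts in MGWT. In MGN it was 14718, 1845, 9610 and 2046, and in MGNP it was 9969, 10787, 3985 and 3966. MGN replicates 1 and 3 and MGNP replicates 1 and 2 thus lay above MGWT, while MGN replicates 2 and 4 lay below it. TN tumors had 81841, 73426, 155042 and 102598, and TNP tumors had 115481, 117600, 108664 and 84390. The lowest tumor was above the highest gland of any group. The log2 fold change was 4.36 ± 0.68 (SE) for TN vs MGN (adjusted p = 0.00104), 4.04 ± 0.37 for TNP vs MGNP (adjusted p = 5.95e-05) and 4.69 ± 0.22 for the 8 tumors vs MGWT (adjusted p = 5.61e-08), all by limma over all genes tested with n = 3 in MGWT and 4 in each other group. Neither kind of transgenic gland was called different from MGWT, at 0.28 (95% confidence interval -1.36 to 1.92) for MGN and 0.70 (-0.24 to 1.63) for MGNP. Reads of the transgene may be counted on *Erbb2*, and how many are was not tested, since the table has 1 row for both.

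*Erbb3* rose with the tumors over the transgenic glands but not past the 2-fold limit over wild-type glands. It was at 9668, 10033 and 7572 normalized counts in MGWT. In MGN it was 2499, 1464, 3145 and 1183, in MGNP 2229, 2586, 3066 and 1136, and all 8 glands lay under the lowest wild-type gland. TN tumors had 10844, 19467, 14262 and 21483 and TNP tumors 12541, 14184, 10878 and 12358, all of them above every wild-type gland. The log2 fold change was 3.05 ± 0.34 for TN vs MGN (adjusted p = 0.000251, limma) and 2.55 ± 0.28 for TNP vs MGNP (adjusted p = 0.000151). Against MGWT the tumors differed by 0.64 ± 0.20 (adjusted p = 0.015), which is under 2-fold, and MGN and MGNP were lower by -2.23 ± 0.33 (adjusted p = 0.000623) and -2.09 ± 0.33 (adjusted p = 0.00242).

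*Erbb4* split the tumors. It was at 1168, 1696 and 1018 normalized counts in MGWT. MGN had 304, 228, 560 and 284 and MGNP 399, 284, 421 and 484, below all wild-type glands. TN replicate 1 had 2278 and the other TN tumors 86.4, 388 and 267, while the TNP tumors had 1808, 2059, 2252 and 1366. TN replicate 1 was thus the highest tumor and TN replicate 2 the lowest, and the other 3 TN tumors lay below every TNP tumor. *Erbb4* was called higher in TNP vs MGNP (log2 fold change 2.24 ± 0.21, adjusted p = 7.4e-05, limma), while TN vs MGN gave 0.22 ± 0.85 (adjusted p = 0.842). The difference between TNP and TN, 2.28 ± 0.82, had an unadjusted p of 0.0214 and an adjusted p of 0.677. Without TN replicate 1 it was 3.14 (adjusted p = 0.0465), and the interaction contrast, which compares the gland to tumor change between genotypes, was 2.01 ± 0.94 (unadjusted p = 0.049, adjusted p = 0.628). Over all alternatives of the TNP vs TN test its adjusted p ranged from 0.0465 to 0.964.

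*Egfr* was the 1 receptor called lower in a comparison of tumors with transgenic glands, TN vs MGN. Its normalized counts were 6200.4, 6626 and 6866 in MGWT, 7330.1, 10094, 5754 and 8276 in MGN, and 4772, 5413, 4598 and 4283 in MGNP. In TN they were 4963, 2480.3, 3290.1 and 2077, all below MGN. In TNP they were 2428, 2789, 5703 and 5766. Replicates 1 and 2, whose library names share an animal number, lay below every MGNP gland, and replicates 3 and 4 lay above. TN vs MGN gave a log2 fold change of -1.35 ± 0.28 (adjusted p = 0.00447, limma), and TNP vs MGNP gave -0.30 ± 0.30 (adjusted p = 0.417). These changes differed by 1.05 ± 0.43, with an unadjusted p of 0.0286 and an adjusted p of 0.568. MGNP lay below MGN in every library, at -0.70 ± 0.18 with an unadjusted p of 0.00438 that did not pass adjustment (adjusted p = 0.327). Over all alternatives its adjusted p ranged from 0.0199 with DESeq2 to 0.569, at a change of less than 2-fold in each. The 9 fibroblast markers also lay lower in MGNP, at a mean log2 level of 11.4 to 12.1 against 12.2 to 13.4 in MGN, and were at 10.4 to 11.2 in MGWT, 8.97 to 11.7 in TN and 9.19 to 10.1 in TNP. Their part in the *Egfr* values was not tested. Against MGWT the tumors were at -0.94 ± 0.31 (adjusted p = 0.0209), just under 2-fold, and this was called at -1.06, -1.03 or -1.04 when TN replicate 1, TNP replicate 3 or TNP replicate 4 was left out.

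**Figure D1:**
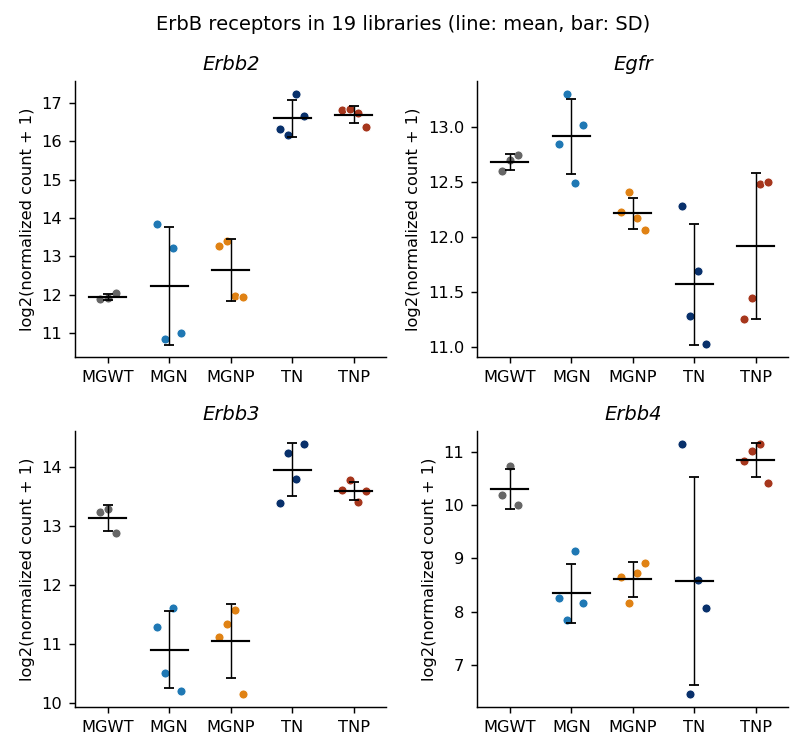
Log2(normalized count + 1) of the 4 receptor genes in each of the 19 libraries, by group, with the group mean (line) and SD (bar). All 8 tumors lie above all 11 glands for Erbb2, and TN holds both the highest and the lowest tumor for Erbb4.

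Levels of different genes can be set side by side per length, and the receptors were therefore divided by their exon length. In MGWT the order was *Erbb3* (1511 ± 221 normalized counts per kb, SD, n = 3), *Erbb2* (761 ± 41.1), *Egfr* (580 ± 29.8) and *Erbb4* (105 ± 28.8), and no neighbouring ranges overlapped. In TN *Erbb2* stood at 19813 ± 7035 per kb (n = 4), *Erbb3* at 2745 ± 806, *Egfr* at 283 ± 113 and *Erbb4* at 61.1 ± 82.8, where the ranges of *Egfr* and *Erbb4* overlapped. In TNP the same order held without overlap at 20448 ± 2926, 2076 ± 225, 368 ± 160 and 151 ± 31.0. *Erbb2* made up 25.9% ± 3.04 of the receptor sum in MGWT and 85.6% ± 4.81 and 88.6% ± 1.87 in TN and TNP. In the transgenic glands that share was 23.5% to 72.2% for MGN and 44.6% to 69.9% for MGNP, so MGN spans the range between wild-type gland and nearly tumor. *Erbb3* went from 50.9% ± 4.57 in MGWT to 12.7% ± 5.03 in TN and 9.10% ± 1.35 in TNP, although its own level per kb was higher in tumors. *Egfr* made up 19.7% ± 2.02 in MGWT, 36.9% ± 23.1 in MGN and 1.34% ± 0.748 and 1.67% ± 0.898 in TN and TNP.

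**Figure D2:**
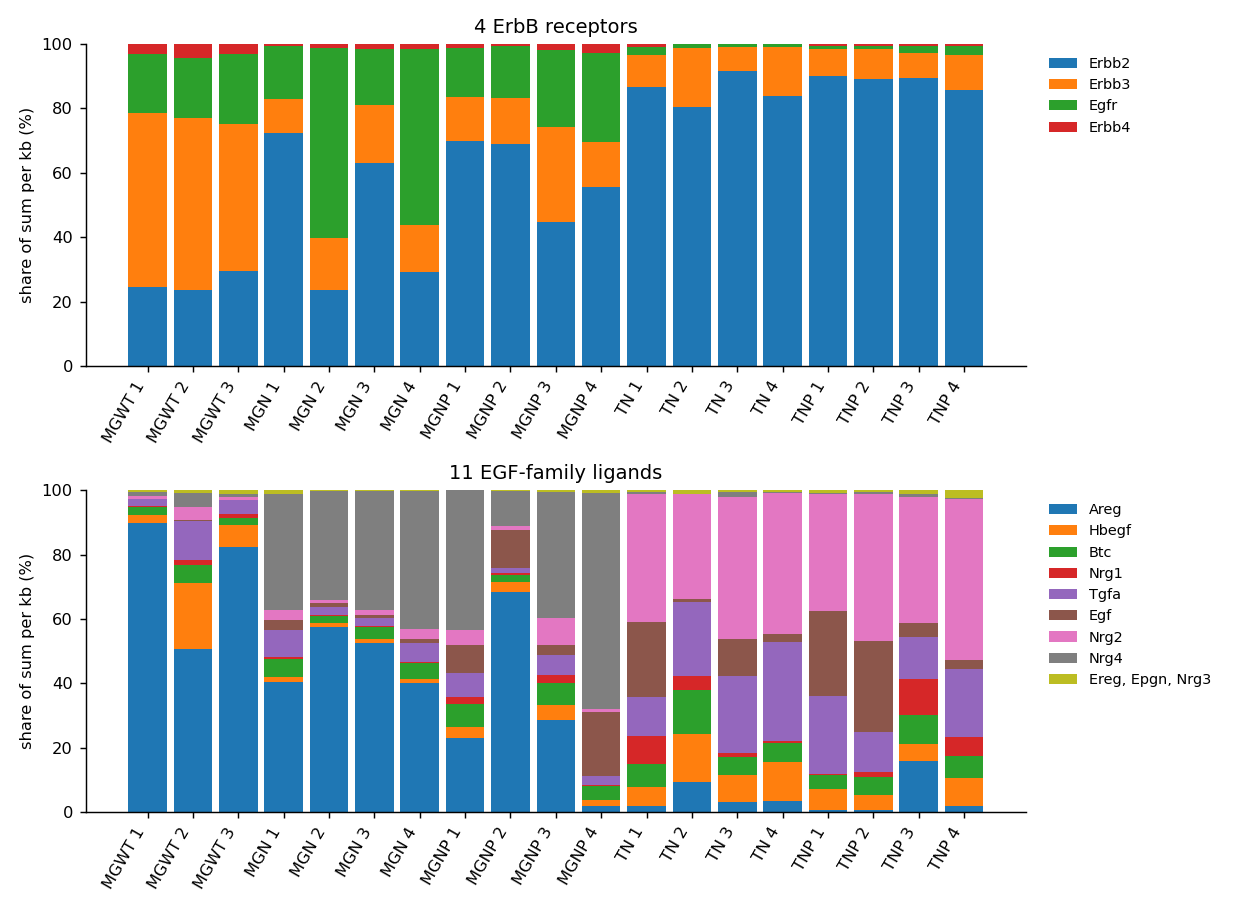
Share of each gene in the sum of normalized counts per kb of exon, in percent, over the 4 receptors (top) and over 11 EGF-family ligands (bottom), 1 bar per library. Erbb2 takes 80.3% to 91.7% of the receptor sum in tumors, and among ligands Areg leads in wild-type glands and Nrg2 has a mean share of 40.0% in TN and 42.8% in TNP.

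*Areg* was the member with the largest fall from wild-type gland to tumor. Its normalized counts were 5040, 586 and 2740 in MGWT, so the wild-type glands themselves spread over 8.60-fold. They were 355, 867, 764 and 356 in MGN and 123, 1086, 152 and 14.2 in MGNP. TN had 14.8, 92.7, 28.3 and 36.2 and TNP 10.1, 9.76, 139 and 16.2, so every TN tumor lay below every MGN gland while TNP replicates 3 and 4 lay within the MGNP range. The log2 fold change was -3.92 ± 0.56 for TN vs MGN (adjusted p = 0.000695, limma) and -6.13 ± 0.87 for tumors vs MGWT (adjusted p = 0.000105). For TNP vs MGNP it was -2.52 ± 1.29 (adjusted p = 0.126), and without MGNP replicate 4, the library with 14.2 counts, it was -3.57 (adjusted p = 0.0256). MGN vs MGWT gave -1.90 ± 0.69 (adjusted p = 0.0426), a call lost without MGWT replicate 1 or 3 or MGN replicate 1, 3 or 4. MGNP vs MGWT gave -3.92 ± 1.38 (adjusted p = 0.0503). That contrast was called with DESeq2 (-2.99, adjusted p = 0.0176). Limma called it with all 5 groups in 1 fit (adjusted p = 0.01), a pseudocount of 5 (0.0476) or without MGNP replicate 2 (0.0136). Over all alternatives its adjusted p ranged from 0.00796 to 0.438.

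*Hbegf* (chromosome 18, 36504927 to 36515805, GRCm38) was lowest in the transgenic glands. MGWT had 602, 933 and 887 normalized counts, MGN 50.9, 69.0, 77.9 and 48.4, and MGNP 71.5, 191.3, 94.2 and 52.9. TN tumors had 176, 586, 318 and 521 and TNP tumors 322, 218, 189.6 and 295, all below the lowest wild-type gland. Both gland groups were lower than MGWT, by -3.69 ± 0.24 (adjusted p = 1.21e-05, limma) for MGN and -3.11 ± 0.43 (adjusted p = 0.00146) for MGNP. TN was higher than MGN by 2.56 ± 0.39 (adjusted p = 0.00101) and TNP than MGNP by 1.45 ± 0.39 (adjusted p = 0.0131), with MGNP replicate 2 inside the TNP range. The tumors stayed below MGWT by -1.39 ± 0.34 (adjusted p = 0.00376).

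*Nrg1* (chromosome 8, 31814551 to 32884029, GRCm38), the neuregulin among the members, varied widely between tumors. It was at 212, 165 and 315 normalized counts in MGWT, 53.5, 40.2, 59.2 and 16.5 in MGN, and 112, 55.7, 116 and 20.7 in MGNP. TN tumors had 551, 365, 99.0 and 44.3 and TNP tumors 33.6, 179, 834 and 431, a range of 24.8-fold over the 8 tumors that covers the wild-type values. TN vs MGN was called at 2.15 ± 0.79 (adjusted p = 0.0482, limma), but not when any 1 MGN gland or TN replicate 1 or 2 was left out (adjusted p from 0.0637 to 0.123). TNP vs MGNP gave 1.78 ± 0.97 (adjusted p = 0.146) and, without TNP replicate 1, 2.67 (adjusted p = 0.018). It was also called with DESeq2 (2.28, adjusted p = 0.0117) and by limma with TNP replicates 1 and 2 averaged (2.42, adjusted p = 0.0424). Over all alternatives of TNP vs MGNP the adjusted p of *Nrg1* ranged from 0.0117 to 0.517. Both gland groups were lower than MGWT, by -2.51 ± 0.45 for MGN (adjusted p = 0.00177) and -1.82 ± 0.61 for MGNP (adjusted p = 0.0429). The MGNP call was lost without any 1 MGWT gland or MGNP replicate 2, and at -0.96 it was under 2-fold without MGNP replicates 2 and 4.

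*Btc* changed little and *Ereg* was near the limit of detection. *Btc* had 471, 240.1 and 281 normalized counts in MGWT, 177, 138, 197 and 166 in MGN, 141, 139.9, 133 and 125 in MGNP, 203, 494, 187 and 242 in TN, and 200.7, 245, 294 and 223 in TNP. It was lower in MGNP than in MGWT by -1.23 ± 0.26 (adjusted p = 0.00738, limma), and its rise from MGNP to TNP, 0.82 ± 0.19 (adjusted p = 0.0063), was under 2-fold although no values overlapped. *Ereg* had 43, 24 and 83 reads in MGWT and 0 to 10 reads in each of the other 16 libraries, 4 of which had none. It passed the filter on low values only in the comparisons with MGWT, through the MGWT libraries. No test between groups and no fold change is given for it in the text. It is left out of the counts of members in those comparisons, except where a count is said to include it.

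*Grb7* was higher in tumors than in transgenic glands, but not than in wild-type glands. It was at 1038, 1353 and 872 normalized counts in MGWT, 224, 163, 345 and 166 in MGN, and 249, 217, 338 and 161 in MGNP. TN tumors had 894, 1544, 853 and 1008 and TNP tumors 858, 1038, 597 and 1265, all above every transgenic gland and overlapping MGWT. It was higher in TN vs MGN by 2.28 ± 0.29 (adjusted p = 0.000427, limma) and in TNP vs MGNP by 1.95 ± 0.29 (adjusted p = 0.000663). Tumors differed from MGWT by -0.14 (95% confidence interval -0.68 to 0.41), whereas *Erbb2* differed by 4.69 (4.21 to 5.17). MGN and MGNP were lower than MGWT by -2.32 ± 0.28 (adjusted p = 0.000252) and -2.19 ± 0.28 (adjusted p = 0.00103).

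**Figure D3:**
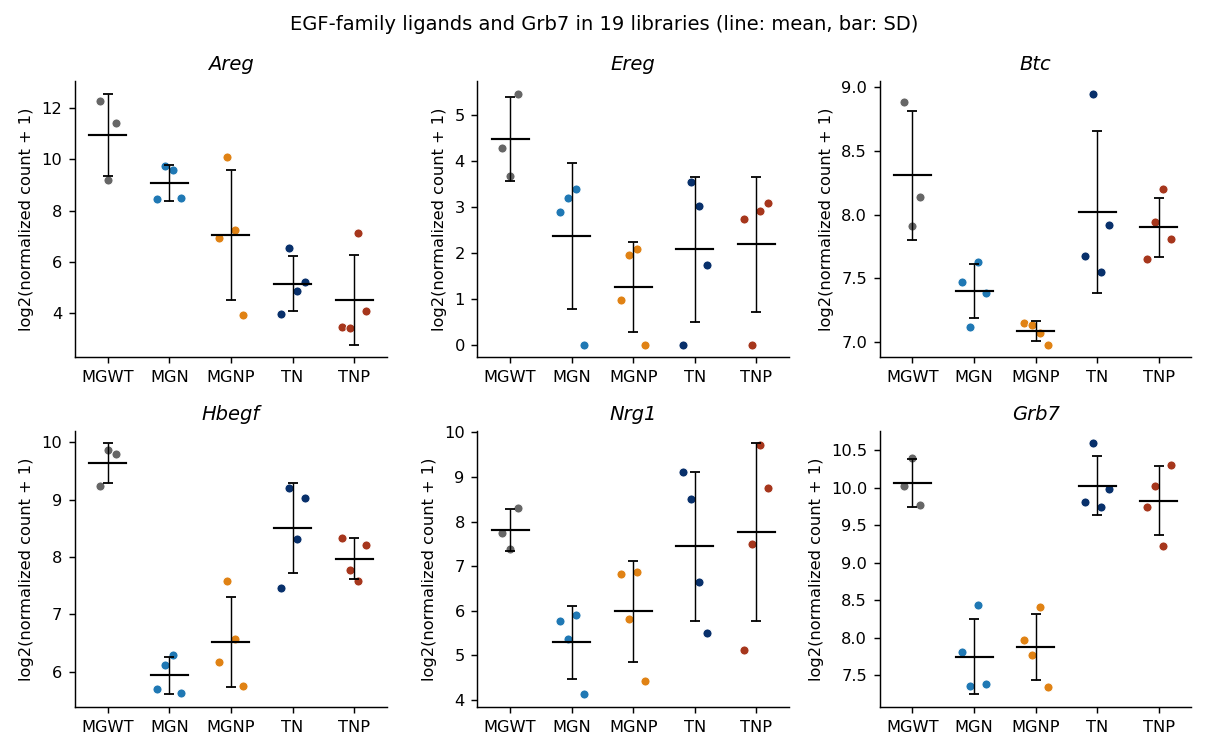
Log2(normalized count + 1) of the 5 ligand genes and Grb7 in each of the 19 libraries, by group, with the group mean (line) and SD (bar). Hbegf and Grb7 are low in MGN and MGNP, and Areg falls from 586 to 5040 normalized counts in MGWT to 9.76 to 139 in tumors.

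Counted over the members, 5 of the 9 tested were called higher in TN vs MGN and 2 lower, where 12.8% and 22.3% of all 17950 genes tested were. For TNP vs MGNP 5 of 9 were called higher and 0 lower, against 14.7% and 24% of 17880 genes. Of the members that were lower in TNP, 0 had an unadjusted p under 0.05, edgeR called 0 and DESeq2 called 1, *Areg*. The 4 genes called higher in both were *Erbb2*, *Erbb3*, *Hbegf* and *Grb7*. With the muscle marker level as a covariate 3 remained higher in TNP vs MGNP, *Hbegf* (1.43, adjusted p = 0.173) and *Grb7* (1.37, adjusted p = 0.064) not being called although still past 2-fold. On that covariate TNP (mean log2 level 3.77 to 8.26) and MGNP (9.08 to 16.8) do not overlap, so muscle level and tissue cannot be told apart in this fit. Without the muscle-rich MGNP replicates 2 and 4, an alternative chosen after the data were seen, 5 were higher. The median log2 fold change of the members was 2.15 and 1.78, against -0.05 and -0.07 over all genes tested.

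Of the 9 members other than *Ereg*, 6 were called lower and 0 higher in MGN vs MGWT, with 17.9% and 19.1% of 19017 genes called in those directions. In MGNP vs MGWT 6 were lower and 0 higher, against 16.2% and 16.4% of 19065 genes. With the muscle covariate, on which MGNP and MGWT do not overlap, none of these 6 was called. *Hbegf* then stood at -3.42 (adjusted p = 0.0702), *Erbb4* at -1.41, *Btc* at -1.20, *Grb7* at -1.13 and *Erbb3* at -1.098 (adjusted p from 0.146 to 0.306), all still past 2-fold, and *Nrg1* at 0.40. Without MGNP replicates 2 and 4, 6 were lower, with *Areg* (-3.87, adjusted p = 0.00796) gained and *Nrg1* lost. edgeR and DESeq2 likewise called 0 higher in either comparison, and 0 had a positive change with an unadjusted p under 0.05. *Egfr* was lower in MGNP by -0.47 (adjusted p = 0.0185), which is under 2-fold. For tumors vs MGWT 1 of the 9 was higher and 2 were lower, against 18.9% and 26.7% of 18735 genes. Without TN replicate 1 the lower members were 4, with *Egfr* and *Erbb4* (-1.03, adjusted p = 0.0386) added. These comparisons share the MGWT glands and are not independent of each other.

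No member was called between the p53 genotypes by limma, edgeR or DESeq2. In MGNP vs MGN 0 of 9 were called, where limma called 0% of 18563 genes in each direction, and only *Egfr* had an unadjusted p under 0.05. Over all genes 1950 had one, edgeR called 0 and DESeq2 called 401 higher and 113 lower. In TNP vs TN 0 of 9 were called, against 0.0361% of 16638 genes higher and 0.00601% lower, and only *Erbb4* had an unadjusted p under 0.05. The TNP vs TN difference was 0.10 (95% confidence interval -0.58 to 0.77) for *Erbb2*, -0.36 (-0.87 to 0.15) for *Erbb3* and -0.20 (-0.81 to 0.41) for *Grb7*, while for *Nrg1* the interval ran from -2.11 to 2.76. In the interaction contrast 0 members were called, as were 0% of 19367 genes, and *Egfr* and *Erbb4* had an unadjusted p under 0.05. edgeR called 0 genes in that contrast and DESeq2 called 80 higher and 276 lower, none of them members.

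**Figure D4:**
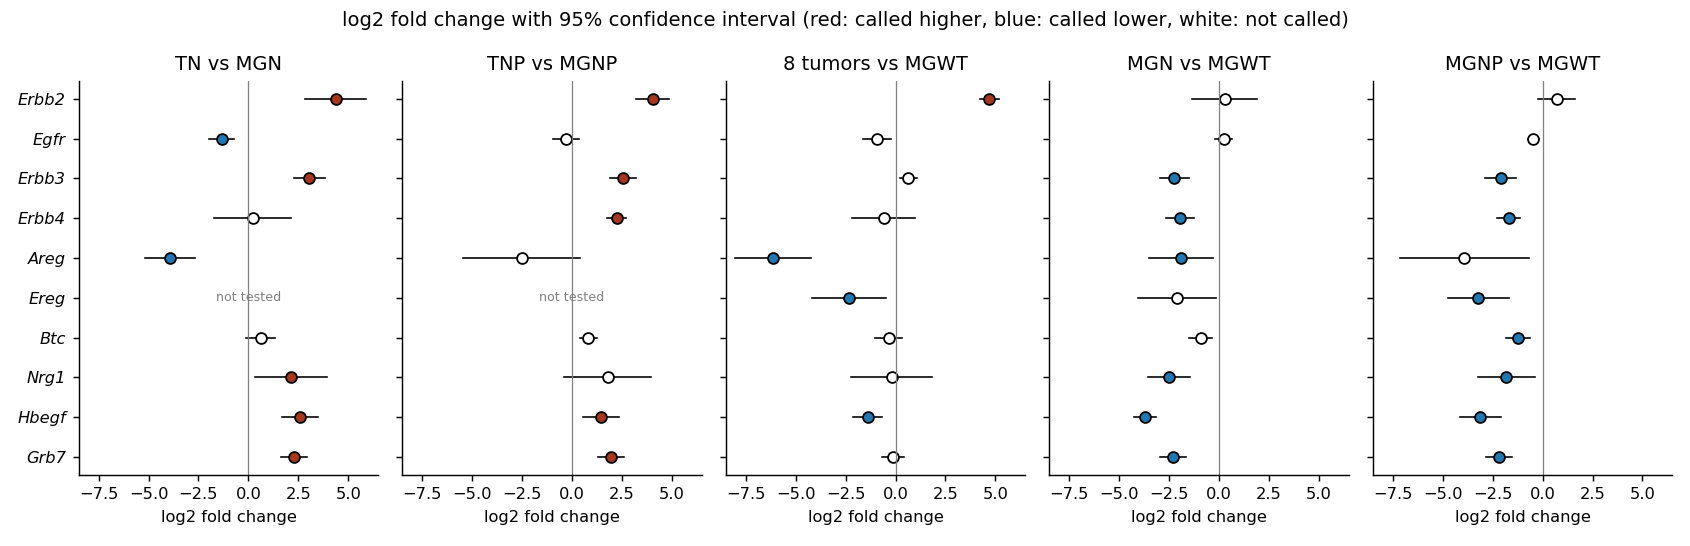
Log2 fold change of the 10 members with its 95% confidence interval in 5 comparisons, from limma. Points called higher are red, points called lower blue and others white. Erbb2 is the 1 member called higher in tumors vs MGWT, at 4.69. Ereg is drawn only where it passed the filter, through the MGWT libraries, so its points and colours are not to be read as a result.

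Since the groups differ in epithelial content, each member was also set against the luminal markers, as its log2 value minus their mean. This is a description, with no test. On that scale *Erbb2* was at -1.09 to -0.97 in MGWT, 0.87 to 3.24 in MGN, 1.04 to 2.69 in MGNP, 3.49 to 5.19 in TN and 4.04 to 4.68 in TNP. All transgenic glands thus lay above MGWT and all tumors above the glands. The marker mean, which includes *Krt19*, was 11.8 to 12.7 in TN and 12.1 to 12.7 in TNP, below the 12.9 to 13.1 in MGWT. The difference of tumors from MGWT was therefore larger on this scale, at 5.39, than unscaled, at 4.69. Against *Epcam* alone the glands still lay above MGWT, by 1.75 for MGN and 2.28 for MGNP, but the tumor to gland differences shrank from 2.62 to 0.75 in TN vs MGN and from 2.12 to 0.54 in TNP vs MGNP, and those ranges overlapped.

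*Erbb3* and *Grb7* depended on the reference. *Erbb3* in TN minus MGN was 1.31 against the 9 markers, with no overlap, and -0.56 against *Epcam*, and *Grb7* was 0.54 and -1.33. MGN minus MGWT was 0.33 against the 9 markers and -0.76 against *Epcam* for *Erbb3*, and 0.24 and -0.85 for *Grb7*, compared with -2.23 and -2.32 unscaled. *Areg* kept its direction with both references in the tumors, at -5.67 and -7.54 for TN minus MGN and -5.43 and -8.16 for tumors minus MGWT. *Areg* in MGN minus MGWT was 0.66 against the luminal markers and -0.43 against *Epcam*, with overlap in both. *Egfr*, which stromal cells also express, was 2.79 above MGWT in MGN on that scale, and *Hbegf* was 1.14 below it (difference -1.14), each with no overlap.

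**Figure D5:**
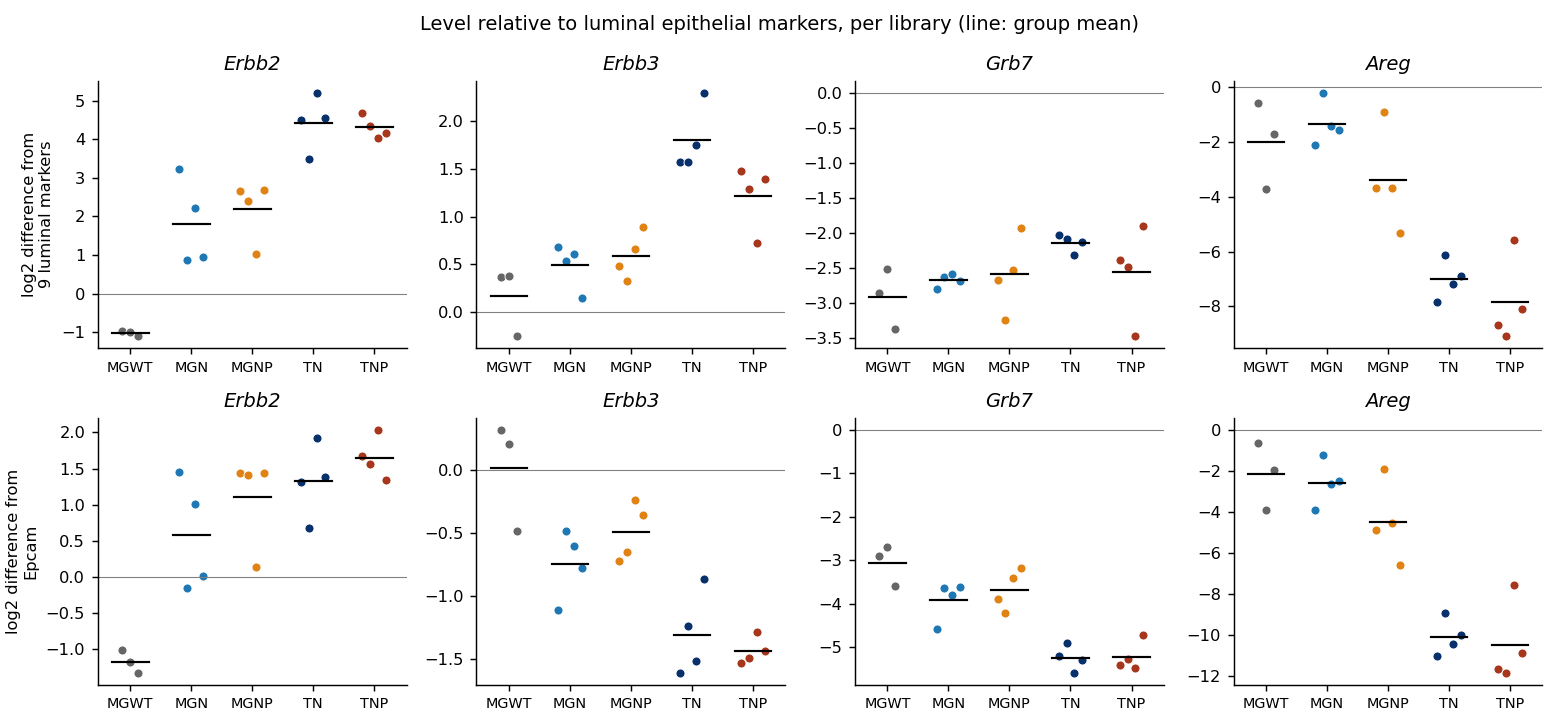
Log2 level of Erbb2, Erbb3, Grb7 and Areg minus the mean log2 level of 9 luminal markers (top) or minus Epcam (bottom), per library and group, with the group mean (line). Erbb2 lies above MGWT in all transgenic samples with both references, and the tumor to gland difference of Erbb3 and Grb7 in TN vs MGN changes sign between them.

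Likeness of pattern was ranked by Pearson's r of log2 values over the 19 libraries among 14831 other genes, as a description of libraries that fall into tissue groups. The genes most like *Erbb2* were *Col9a1* (r = 0.97), *Cmas* (0.96), *Csn3* (0.96), *Zscan21* (0.96) and *Aldoc* (0.96). Those most like *Erbb3* were *Fhdc1* (0.99), *Col4a5* (0.99), *Spint1* (0.98), *Mpzl1* (0.98) and *Sorbs2* (0.98), and those like *Grb7* included *Naaladl2*, *Grhl2*, *Ccdc120* and *Map7* (0.96 to 0.97). *Erbb3* ranked 12 among the genes like *Grb7* (r = 0.96), whereas *Erbb2* ranked 2845 (r = 0.60).

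Of the 14 listed genes around *Erbb2*, 10 were tested. In TN vs MGN 4 were called higher and 1 lower, against 12.8% and 22.3% of all genes, and in TNP vs MGNP 4 were higher and 2 lower, against 14.7% and 24%. *Mien1*, the overlapping neighbour, had 387 to 422 normalized counts in MGWT, 472 to 667 in the transgenic glands and 1138 to 2524 in the tumors, with no overlap between tumors and glands. It was higher by 1.496 in TN vs MGN (adjusted p = 0.00102, limma), by 1.78 in TNP vs MGNP (adjusted p = 7.86e-05) and by 2.15 in tumors vs MGWT (adjusted p = 8.98e-06). *Stard3* rose by 1.32 and 1.21 and *Pgap3* by 1.45 and 1.56 in TN vs MGN and TNP vs MGNP, less than *Erbb2* did. Against MGWT the tumors overlapped for *Pgap3* (401 to 649 against 467 to 513 normalized counts) and lay above for *Stard3* (1308 to 1956 against 783 to 931). *Cdk12*, 134 kb before *Erbb2*, was lower in tumors than in MGWT by -1.02 (adjusted p = 8.78e-06).

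Among the 6 other ligands of the family, *Nrg2* and *Tgfa* were higher and *Nrg4* lower in the tumors than in the transgenic glands. *Nrg2*, a neuregulin that binds Erbb3 and Erbb4, was at 19.4 to 122 normalized counts in the 11 glands and 781 to 1433 in the 8 tumors, and rose by 3.99 in TN vs MGN (adjusted p = 3.39e-05, limma) and 4.41 in TNP vs MGNP (adjusted p = 0.000115). *Tgfa*, an Egfr ligand, rose by 2.098 (adjusted p = 0.00299) and 2.61 (adjusted p = 0.000268). Against MGWT, where it had 639 to 768 normalized counts, the tumors overlapped at 494 to 1784 and were not called (0.49, adjusted p = 0.253). *Nrg4*, an Erbb4 ligand made by adipose tissue, was at 861 to 2699 in MGN and MGNP, 167 to 377 in MGWT and 3.16 to 62.6 in tumors, and changed by -6.76 in TN vs MGN and -5.56 in TNP vs MGNP (adjusted p = 0.000206 and 1.21e-05). The white adipocyte markers were also highest in MGN and MGNP, and they summed to 302 to 7330 in tumors, a range that holds the MGWT values. *Nrg4* was lower in every tumor than in every wild-type gland, and the part of adipocyte RNA in its values was not tested. *Egf* was 49.8 to 69.5 in MGWT and 114 to 260 in MGN. In MGNP it was 440, 1727, 154 and 1395, highest in the libraries with the most muscle RNA, whose part in it was not tested. Tumors had 80.1 to 3178, and all transgenic glands and tumors lay above MGWT. TNP replicates 1 and 2 had the most *Egf* (3122 and 3178), with muscle genes at 0.00388% and 0.0173% of normalized counts. *Epgn* had at most 33.1 normalized counts in any library and had 23 to 68 reads in MGWT, 0 to 9 in the transgenic glands and 4 to 21 in tumors, and where it was called it had passed the filter on low values only through the higher group, so no test is given for it. *Nrg3* had 3 reads in all 19 libraries together.

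Over 11 ligands per kb, *Areg* made up 74.3% ± 20.7 (SD, n = 3) of the sum in MGWT, 47.6% ± 8.69 in MGN and 30.5% ± 27.8 in MGNP. In TN and TNP it made up 4.44% ± 3.36 and 4.83% ± 7.35. *Nrg4* held 37.5% ± 3.80 in MGN and 40.2% ± 23.2 in MGNP. In TN and TNP *Nrg2* held 40.0% ± 5.42 and 42.8% ± 6.22 and *Tgfa* 22.5% ± 7.73 and 17.7% ± 5.82. *Egf* held 9.57% ± 10.3 in TN, 15.5% ± 13.8 in TNP and 10.9% ± 6.96 in MGNP. In TNP it held 26.6% and 28.2% in replicates 1 and 2, whose library names share an animal number. In replicates 3 and 4 its share was 4.24% and 2.80%. *Hbegf*, *Btc* and *Nrg1* held 10.4% ± 3.98, 8.03% ± 3.70 and 3.65% ± 3.65 in TN. With the longest transcript in place of the exon length *Areg* still led in MGWT (66.2%) and *Nrg2* in TN (30.2%) and TNP (31.7%), while in MGN *Nrg4* (61.1%) and not *Areg* (27.0%) led. By that length *Egf* (24.5%) came before *Tgfa* (18.2%) in TNP.

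The remaining pathway genes were counted from fixed lists. Of 16 inhibitors of ErbB or Ras signaling, 5 were called higher and 2 lower in TN vs MGN, against 12.8% and 22.3% of all genes, and 6 higher and 1 lower in TNP vs MGNP, against 14.7% and 24%. The largest rises were those of *Dusp6*, a phosphatase that inactivates ERK (3.47 and 3.68), and *Spry2* (2.52 and 2.35), and the ubiquitin ligase gene *Cblb* changed by -1.54 and -1.75. In MGN and MGNP vs MGWT 6 and 7 inhibitors were lower, against 17.9% and 16.2% of all genes, among them *Dusp6* (-2.55 and -2.97), and the others were not called. In tumors vs MGWT 4 inhibitors were lower, against 26.7% of all genes, and the other 12 were not called. Of 12 adaptors 1 was higher and 1 lower in TN vs MGN and 2 and 1 in TNP vs MGNP, against the same 12.8% and 22.3%, and 14.7% and 24%, of all genes, with *Nck2* at 2.11 and 2.01 and *Grb14* at -1.54 and -1.60. Of 4 sheddase genes, which encode or assist the proteases that release ligands, *Rhbdf2* alone was higher in TN vs MGN (1.45, adjusted p = 0.000222, limma) and in TNP vs MGNP none of the 4 was called by limma.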

How the data were processed

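Total RNA of 19 glands and tumors was sequenced. The sample labels name a stranded total RNA kit, whereas the study's methods name an mRNA kit. Reads of 75-bp pairs were aligned to GRCm38 with TopHat2 (2.1.1) and Bowtie2. The counter and its annotation are not given in the sources used here. The signal deposited by the authors is 1 table of counts divided by size factors. Values were whole multiples of 1 step per library, which gave whole reads for 100% of values (tolerance 0.05 reads).

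Symbols, positions and exon lengths came from GENCODE vM21 (GRCm38), which matched 97.97% of identifiers. Log2(normalized count + 1) of the groups compared was fitted with limma 3.58.1 (eBayes with trend) over genes that reached 10 normalized counts in a number of samples equal to the smaller group's size or more, with Benjamini-Hochberg adjustment. The tumors vs MGWT contrast took the mean of the TN and TNP groups. The interaction had no fold limit. The script was tested on simulated counts. Alternatives were pseudocounts of 0.5 and 5, no filter or a mean of 50, TMM scaling, edgeR 4.0.16 and DESeq2 1.42.0 on recovered reads, no fold limit, all groups in 1 fit, a replicate block, a muscle covariate, averaging TNP replicates 1 and 2, and leaving out samples. Named genes were all members, all other ligands, and up to 5 called genes per direction of the other lists. Members and lists were chosen with earlier results of these data known. Of the genes ranked closest in pattern to *Grb7*, 1 is not reported here.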

Additional observations from a re-analysis of the deposited data

Results flagged for a closer look

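In MGN replicate 4 *Ereg* had 0 reads while the other 3 MGN glands had 5 to 10, and this value was flagged by Dixon's test. In TNP replicate 2 *Ereg* also had 0 reads, where the other 3 TNP tumors had 5 or 6. These were the 2 flags among 40 combinations of a member and a group of 4, where chance flags about 1 in 20. At these counts 0 reads allow up to 3, so neither flag is read as a difference of that library.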

How the results depend on the processing

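Over 782 combinations of a member, a comparison and an alternative other than leaving out 1 sample, 743 kept their direction and side of the threshold, 14 lost a call, 10 gained one and 15 changed sign. The count of members called moved past 1.5-fold in these cases, where counts against MGWT include *Ereg*. With the muscle covariate, on which neither pair of groups overlaps, 3 were higher in TNP vs MGNP and 0 lower in MGNP vs MGWT. With DESeq2 1 was lower in TNP vs MGNP, and with no fold limit 2 were higher in tumors vs MGWT. Leaving out 1 sample gave 0 to 1 lower in TNP vs MGNP, 0 to 1 higher in TNP vs TN (1 without TN replicate 1) and 2 to 5 lower in tumors vs MGWT. Same-numbered samples did not deviate together (correlations of -0.24 to 0.27), so the numbers were not taken as pairs. With a replicate block 5 members were lower in MGN vs MGWT (*Areg* was lost), and no other count moved.

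With *Epcam* alone as the reference *Erbb2* differed by 0.75 in TN vs MGN, 0.54 in TNP vs MGNP, 1.75 in MGN vs MGWT, 2.28 in MGNP vs MGWT, 2.66 in tumors vs MGWT and 0.33 in TNP vs TN. The last was -0.12 against the 9 markers and -0.44 to 0.13 with 1 sample left out.

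Signs changed as follows (log2 fold change), and the cause was not tested. With the muscle covariate *Egfr* was 0.32 in TNP vs MGNP, *Erbb2* -0.36 and *Nrg1* 0.40 in MGNP vs MGWT, *Erbb2* -0.48 in MGNP vs MGN, and in the interaction *Erbb2* 0.32, *Btc* -0.0086 and *Nrg1* 0.21. Only this *Nrg1* result for MGNP vs MGWT had been called. With edgeR and DESeq2 *Areg* was 0.022 and 0.014 in TNP vs TN, *Nrg1* 0.48 and 0.43 in tumors vs MGWT, and *Erbb2* 0.048 and 0.020 in the interaction. With TNP replicates 1 and 2 averaged *Nrg1* was 0.12 in tumors vs MGWT and 0.27 in the interaction. With 1 sample left out *Erbb4* ranged from -0.64 to 0.93 in TN vs MGN and *Erbb2* from -0.26 to 0.74 in MGN vs MGWT. In MGNP vs MGN *Erbb2* ranged from -0.043 to 0.96, *Grb7* from -0.055 to 0.35 and *Erbb3* from -0.093 to 0.44. In TNP vs TN *Erbb2* ranged from -0.048 to 0.31, *Btc* from -0.28 to 0.19 and *Nrg1* from -0.32 to 1.21. In tumors vs MGWT *Grb7* ranged from -0.29 to 0.032 and *Nrg1* from -0.52 to 0.24, and in the interaction *Erbb2* from -0.86 to 0.14 and *Nrg1* from -1.01 to 0.52.

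MGWT had the deepest libraries. Reads of *Erbb2* and the transgene, and of cells gained or lost and genes regulated, cannot be told apart here. Depth limits *Ereg*, *Epgn* and *Nrg3*.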
